A study of Mus musculus with 41 samples.

Results

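The regions described here are binding sites of the transcription factor Runx2 called in mouse rib chondrocytes but not in calvarial osteoblasts. By list name, with the day 0 label crossed as described below, they were also called in 3T3 fibroblasts made to express Runx2. They numbered 4669 of the 15390 peaks in the chondrocyte Runx2 list, and the 8 peak lists of the series held 155773 peaks in all. The members were chosen by overlap alone. Each overlapped, by at least 1 bp, a peak of a 3T3 Runx2 list (day 0, day 3 or both) and no peak of the osteoblast Runx2 list or of the chondrocyte Foxa2 list. Overlap with those 4 lists, and the number of sites in each 3T3 day class, are therefore given as descriptions without a test. Tests were kept to Jun, the GFP lists and distances to peaks that do not overlap a site. The lists record where a tagged factor was called by chromatin immunoprecipitation and not whether chromatin was accessible, so no site is called open here. The sites are called 3T3-shared chondrocyte sites below.

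Runx2 is a runt-domain factor that is required for osteoblast formation and also drives chondrocytes towards hypertrophy, the enlarged state that precedes bone in a growth plate. It is thus used by both skeletal lineages, and 3T3 fibroblasts serve as cells of neither. Jun is a subunit of AP-1, a factor that binds regulatory DNA in osteoblasts, fibroblasts and many other cells, and Foxa2 is a forkhead factor that acts with Foxa3 in hypertrophic chondrocytes.

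The series held 41 samples in 24 groups: 23 ATAC-seq libraries, 10 immunoprecipitations, 7 inputs and 1 IgG control. The ATAC-seq data were not used here. In the chondrocyte group, Runx2 was pulled down with an anti-FLAG antibody from rib chondrocytes of Runx2-BioFL/+ knock-in C57BL/6 pups at postnatal day 1 (2 libraries, 1 peak list). The osteoblast Runx2 group was the same knock-in, strain, age and antibody with cells from the calvaria (2 libraries, 1 list). Foxa2 was pulled down from rib chondrocytes and Jun from calvarial osteoblasts of wild-type C57BL/6 pups, also at postnatal day 1 (1 library each). The IgG control was labelled for Foxa2, and no input or IgG control was labelled for Jun. The 3T3 groups, a fibroblast cell line, overexpressed Runx2BioFL or GFP and were taken at day 0, or at day 3 of an osteogenic medium with ascorbic acid phosphate, β-glycerophosphate and BMP-2 at 100 ng/ml (anti-FLAG, 1 library a group). For the vector and promoter of the 3T3 lines, and for library depth, no statement was found in the sources used here.

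Several features of the design bear on every value. Each group is 1 list, so the tests compare lists and not conditions, and all intervals cover counting error only. Neighbouring peaks are not independent of one another, and no spread between replicates could be measured. Cell type and skeletal site (rib or calvaria) cannot be told apart. Peaks were not tied to genes, so cell types could not be checked against markers. In addition, 2 of the 3T3 lists had crossed labels: the list named for Runx2 day 0 stood under the GFP day 3 sample, and the list named for GFP day 3 under the Runx2 day 0 sample. Both were used under their own names, and the odds ratios over whole classes that rest on them are also given with the lists exchanged. Partner distances, positions and shares by day, file part or chromosome are given by list name only, unless stated.

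Of the chondrocyte Runx2 peaks, 10782 (70.1%) overlapped no osteoblast Runx2 peak, and 8366 of these (77.6%) had no Foxa2 peak. The last step of the selection kept 4669 of those 8366 (55.8%) and left 3697, called here the chondrocyte sites outside the 3T3 lists. Over all chondrocyte Runx2 peaks, 58.6% overlapped a 3T3 Runx2 list, a share used by the selection and read no further. Most selected sites lay well inside it: the longest stretch shared with a 3T3 peak had a median of 115 bp and reached 467 bp. At the limit, 53 members shared 10 bp or less, and 5 of them a single base pair (1 bp). Just outside it, 34 unselected sites lay within 10 bp of a 3T3 Runx2 peak, 1 of them touching it, and 588 (15.9%) lay within 500 bp. The median gap of the unselected sites was 11500 bp.

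By list name, 3156 of the 4669 sites (67.6%) were called in 3T3 cells on both days, 543 (11.6%) at day 0 only and 970 (20.8%) at day 3 only. In all, 3699 (79.2%) overlapped the list named for Runx2 day 0 and 4126 (88.4%) the day 3 list. These counts depend on the crossed lists: with them exchanged, 784 of 4377 selected sites were of both days, 251 of day 0 only and 3342 of day 3 only. The 3T3 lists also differ in size, with 31013 peaks named for day 0 and 50180 for day 3. A change per site cannot be told apart from this difference in list size. For 3 related classes that were also in a 3T3 Runx2 list, the share called on both days was 82.8% for 3440 Runx2 sites of both skeletal cell types, 64.0% for 2781 osteoblast-only sites (both classes without Foxa2) and 50.4% for 645 chondrocyte-only sites with Foxa2.

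Because each site was chosen for its overlap with a 3T3 peak, the distance between their centres is bounded by the peak widths and is given as a description. Between the centres of a 3T3-shared chondrocyte site and its nearest partner peak, the median distance was 40 bp in the list named for day 0 (quartiles 17 and 80 bp) and 50 bp in the day 3 list (21.5 and 95.5 bp). Centres lay within 100 bp of each other for 81.8% of the 3699 sites with a day 0 partner and 76.7% of the 4126 with a day 3 partner. A member met more than 1 partner peak 388 times at day 0 and 444 times at day 3, with up to 6 and 5 partners. The partners made up 13.3% of the day 0 list (4136 peaks) and 9.20% of the day 3 list (4617 peaks). Partners were close in width to the rest of their lists: the median width was 192 bp for partners and 190 bp for other peaks at day 0, and 209 and 213 bp at day 3. They stood nearer the top of the files, at a median of 35.7% of the way down at day 0 (other peaks 52.4%) and 27.5% at day 3 (other peaks 52.5%). What orders the peaks in the files is not given in the sources used here.

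The first readout that the selection did not use was Jun in osteoblasts. Although none of the 3T3-shared chondrocyte sites was an osteoblast Runx2 peak, 926 of 4669 (19.8%, 18.7 to 21.0%) overlapped a Jun peak of osteoblasts. Among chondrocyte sites outside the 3T3 lists the share was 303 of 3697 (8.20%, 7.35 to 9.12%), and over all 15390 chondrocyte Runx2 peaks it was 17.8%. The selected sites were thus near the average of their list, while the sites outside the 3T3 lists were well under it. The odds ratio between the 2 classes was 2.77 (2.41 to 3.19, adjusted p = 9.77e-52, two-sided Fisher's exact test). The adjustment, by the Benjamini-Hochberg method, covers 24 class tests, of which 21 had an adjusted p under 0.05. The Jun share was higher in the selected sites on 20 of 20 chromosomes. With the crossed lists exchanged the odds ratio was 2.83, and with the day 3 list alone deciding it was 2.20.

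Against other Runx2 sites that were also found in 3T3 cells, the Jun share was lower, except where Foxa2 was present. It was 19.8% in the 3T3-shared chondrocyte sites and 34.2% (32.6 to 35.8%) in the 3440 sites of both skeletal cell types (odds ratio 0.476, 0.430 to 0.527; Fisher's exact test, adjusted p = 4.66e-47). Osteoblast-only sites had Jun at 723 of 2781 peaks (26.0%, 24.4 to 27.7%), which put the 3T3-shared chondrocyte sites lower at an odds ratio of 0.704 (0.629 to 0.788; exact adjusted p = 1.32e-09). In both contrasts the selected sites were lower on 19 of 20 chromosomes, and with the crossed lists exchanged the odds ratios were 0.484 and 0.678. The Jun antibody was used in osteoblasts only, so osteoblast-derived Runx2 lists and the Jun list share a cell type, and its part in these 2 differences was not tested. Chondrocyte-only sites with Foxa2 that were in a 3T3 list had the lowest share, 46 of 645 (7.13%, 5.39 to 9.38%), and the 3T3-shared chondrocyte sites without Foxa2 stood above them (odds ratio 3.22, 2.36 to 4.49; exact adjusted p = 3.38e-17), or 3.31 with the lists exchanged. Where a Jun peak met a 3T3-shared site, the centres were a median of 62 bp apart (quartiles 28.5 and 110 bp), against 53 bp (23 and 104 bp) for Jun at the sites outside the 3T3 lists.

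**Figure D1:**
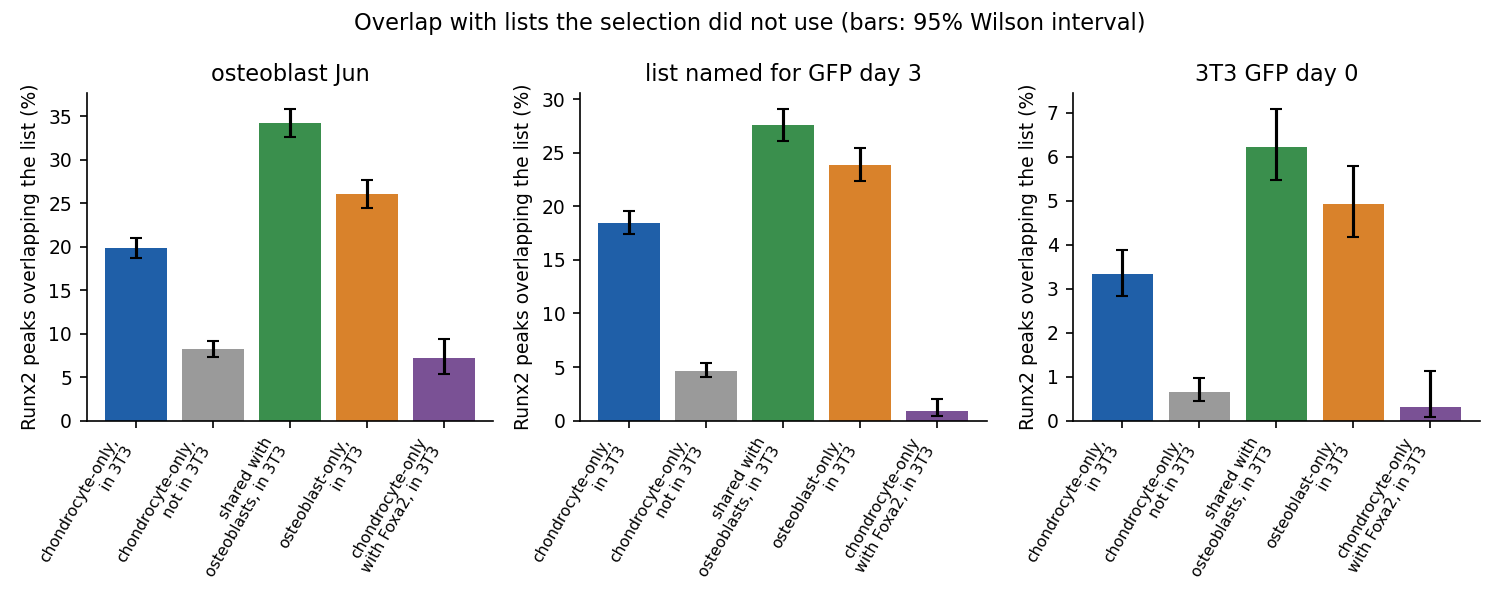
Share of Runx2 peaks in each class (x axis) that overlapped osteoblast Jun, the list named for GFP day 3 and GFP day 0 (y axes, percent), with 95% Wilson intervals. The 3T3-shared chondrocyte sites (19.8% with Jun) stand above the chondrocyte sites outside the 3T3 lists (8.20%) and below the sites of both skeletal cell types (34.2%).

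The GFP lists come from the same cell line and antibody as the 3T3 Runx2 lists that made the selection, so they are not wholly separate from it. The sites outside the 3T3 lists were chosen to be in no 3T3 Runx2 list. A higher GFP share in the selected sites could therefore follow from the selection itself. The tests against those sites cannot tell this apart, and their p-values are not read as support. By their names the GFP lists are controls without tagged Runx2, but for the list named for GFP day 3 the crossed label leaves this unsettled. A peak named for GFP day 3 overlapped 863 of the 4669 sites (18.5%, 17.4 to 19.6%) and 172 of 3697 chondrocyte sites outside the 3T3 lists (4.65%, 4.02 to 5.38%), against 13.6% of all chondrocyte Runx2 peaks. The odds ratio between the classes was 4.65 (3.91 to 5.54, adjusted p = 9.96e-88, Fisher's exact test), with a higher share in the selected sites on 20 of 20 chromosomes. With the crossed lists exchanged, so that the list named for Runx2 day 0 took the place of GFP day 3, it was 21.5. The much smaller GFP day 0 list overlapped 155 of the 3T3-shared chondrocyte sites (3.32%, 2.84 to 3.87%) and 24 of the sites outside the 3T3 lists (0.649%, 0.437 to 0.964%), against 2.86% of all chondrocyte Runx2 peaks. That odds ratio was 5.25 (3.40 to 8.47; exact adjusted p = 1.32e-18), and 12.1 with the crossed lists exchanged.

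The selected sites met the GFP lists less often than the other 2 Foxa2-free classes found in 3T3 cells. For the list named for GFP day 3 the share of 18.5% compared with 27.6% (26.1 to 29.1%) in sites of both skeletal cell types (odds ratio 0.595, 0.535 to 0.662; Fisher's exact test, adjusted p = 1.11e-21). Compared with 23.9% (22.4 to 25.5%) in osteoblast-only sites, the odds ratio was 0.722 (0.643 to 0.810; exact adjusted p = 4.21e-08). With the crossed lists exchanged, the contrast with sites of both cell types was 0.412. The contrast with osteoblast-only sites turned round, to 1.42, so its direction depends on which list is the control. The GFP day 0 list, whose label was not crossed, gave 3.32% in the selected sites, 6.22% in sites of both cell types (odds ratio 0.518) and 4.93% in osteoblast-only sites (odds ratio 0.663, exact adjusted p = 8.03e-04). Exchanging the crossed lists moved these 2 odds ratios to 0.531 and 0.674. Of the chondrocyte-only sites with Foxa2, 6 of 645 (0.930%, 0.427 to 2.01%) were in the list named for GFP day 3. The 3T3-shared chondrocyte sites stood above them at an odds ratio of 24.1 (11 to 66.3), which was 2.10 with the lists exchanged.

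Jun was more frequent at those 3T3-shared chondrocyte sites that were also in a GFP list. Of the 927 sites in either GFP list, 353 (38.1%, 35.0 to 41.2%) had Jun, and of the 3742 in neither, 573 (15.3%, 14.2 to 16.5%) had Jun (odds ratio 3.40, 2.89 to 4.0; Fisher's exact test, adjusted p = 1.03e-47). Exchanging the crossed lists gave an odds ratio of 1.58. The other 574 sites of the GFP lists (12.3% of all selected sites) had no Jun, and 3169 (67.9%) were in neither kind of list. Among the sites outside the 3T3 lists, 3271 of 3697 (88.5%) were in neither. For these combinations, and for their shares by day below, no share over all chondrocyte Runx2 peaks was computed. When every peak in a GFP list was left out, Jun still overlapped 15.3% of the selected sites and 247 of 3518 sites outside the 3T3 lists (7.02%, 6.22 to 7.91%), at an odds ratio of 2.39 (2.04 to 2.81; exact adjusted p = 5.53e-29). The Jun difference was thus present at sites in neither of the lists named for GFP, and with the crossed lists exchanged the odds ratio was 2.40.

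Distances were measured next, from each site to the nearest peak that did not overlap it. No selected site overlapped an osteoblast Runx2 peak, but 1163 of 4669 (24.9%, 23.7 to 26.2%) had one within 10 kb. For chondrocyte sites outside the 3T3 lists this was 667 of 3697 (18.0%, 16.8 to 19.3%), and over all chondrocyte Runx2 peaks 23.5%. That last share also counts peaks on an osteoblast Runx2 peak, where a further one lay within 10 kb. The odds ratio between the 2 classes was 1.51 (1.35 to 1.68, adjusted p = 6.67e-14, Fisher's exact test). The median distance to an osteoblast Runx2 peak was 37885 bp from the 3T3-shared chondrocyte sites and 55944 bp from those outside the 3T3 lists, with quartiles of 10184 and 103817 bp against 17374 and 157138 bp. Within 500 bp the shares were 6.62% and 3.11%, and within 2 kb 12.4% and 7.22%. Because the selection removed sites on an osteoblast Runx2 peak, this measure includes near misses of that rule. Part of the difference at 10 kb was thus already present within 500 bp. Exchanging the crossed lists gave 1.37 within 10 kb.

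Foxa2 went the other way. A Foxa2 peak lay within 10 kb of 1239 of the 4669 sites (26.5%, 25.3 to 27.8%) and of 1269 of the 3697 sites outside the 3T3 lists (34.3%, 32.8 to 35.9%), against 30.3% of all chondrocyte Runx2 peaks. The odds ratio was 0.691 (0.628 to 0.760, adjusted p = 2.81e-14, Fisher's exact test), lower in the selected sites on 18 of 20 chromosomes, and 0.666 with the crossed lists exchanged. The share over all chondrocyte Runx2 peaks also counts peaks on a Foxa2 peak, where a further one lay within 10 kb. Because the selection removed sites on a Foxa2 peak, the measure includes near misses of that rule. Within 500 bp the shares were already 4.30% of 3T3-shared sites and 10.9% of the sites outside the 3T3 lists. They were 10.0% and 17.2% within 2 kb, and 63.7% and 66.3% within 50 kb. Much of the difference at 10 kb was thus present within 500 bp. Sites of both skeletal cell types had Foxa2 within 10 kb at 24.8%, and against these the selected sites gave an odds ratio of 1.10 (0.991 to 1.22), which did not pass the exact test (adjusted p = 0.0789). Compared within 10 parts of the file order, it was 1.16 and passed the test. Against osteoblast-only sites (23.4%) the selected sites were higher, at an odds ratio of 1.18 (1.06 to 1.32; exact adjusted p = 0.00308). After the exchange of the crossed lists these 2 odds ratios were 1.10 and 1.18.

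Selected sites without Jun were nevertheless near a Jun peak more often than the sites outside the 3T3 lists. Of the 3743 3T3-shared chondrocyte sites that no Jun peak overlapped, 1226 (32.8%, 31.3 to 34.3%) had one within 10 kb. For the sites outside the 3T3 lists this was 697 of 3394 (20.5%, 19.2 to 21.9%), and for all chondrocyte Runx2 peaks without Jun it was 27.7%. The odds ratio was 1.88 (1.69 to 2.10, adjusted p = 8.32e-31, Fisher's exact test), in the same direction on 20 of 20 chromosomes, and 1.73 with the crossed lists exchanged. The median distance to Jun was 26771 bp and 49302 bp for these 2 classes. Within 500 bp the shares were already 13.4% and 4.80%. Much of the difference at 10 kb thus came from Jun peaks that narrowly missed a site, so it is not separate from the overlap result. Distance to other chondrocyte Runx2 peaks gave no such difference: 34.4% of the selected sites and 33.8% of the sites outside the 3T3 lists had a further one within 10 kb, against 34.7% of the whole list. That odds ratio was 1.03 (0.935 to 1.12; exact adjusted p = 0.593), so by this measure a difference beyond those bounds was not seen, and the exchange gave 0.982.

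**Figure D2:**
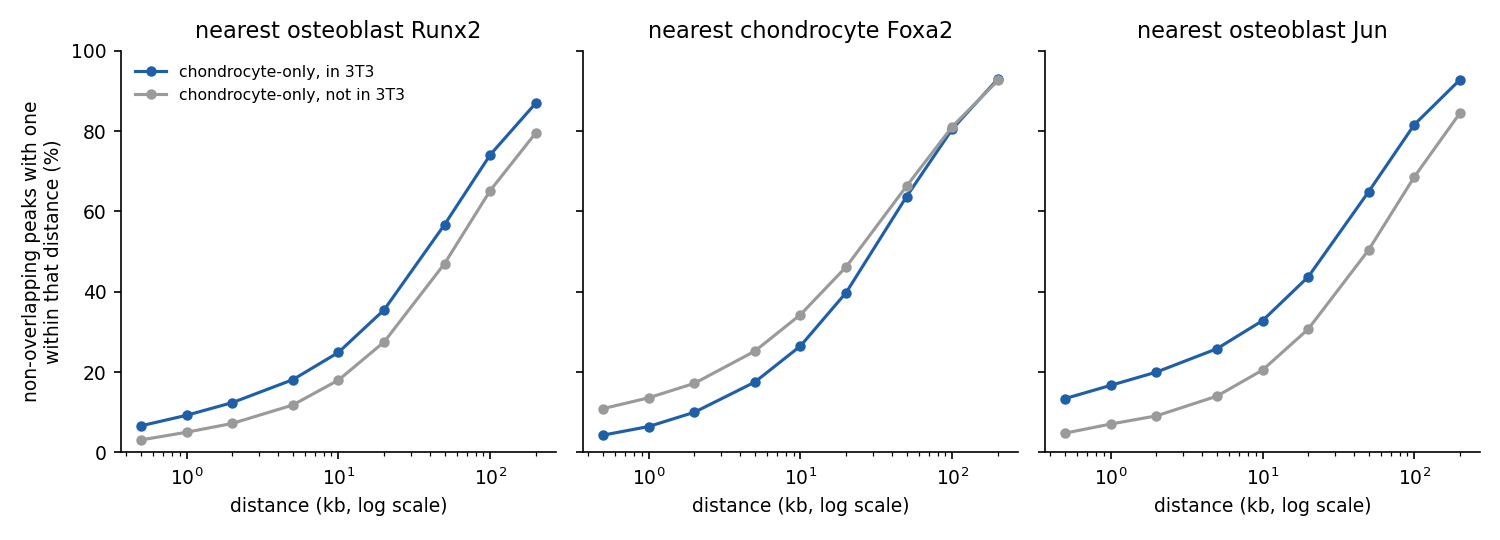
Percent of non-overlapping peaks (y axis) with a peak of the named list within a given distance (x axis, kb, log scale), for the 3T3-shared chondrocyte sites and the chondrocyte sites outside the 3T3 lists. At 10 kb the shares are 24.9% and 18.0% for osteoblast Runx2, 26.5% and 34.3% for Foxa2, and 32.8% and 20.5% for Jun.

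Within the selected sites, the readouts differed by 3T3 day class. Jun overlapped 119 of the 543 sites of day 0 only (21.9%, 18.6 to 25.6%), 681 of the 3156 sites of both days (21.6%, 20.2 to 23.0%) and 126 of the 970 sites of day 3 only (13.0%, 11 to 15.3%). Sites called at day 3 only stood lower than those of day 0 only (odds ratio 0.532, 0.400 to 0.709; Fisher's exact test, adjusted p = 1.14e-05), on 15 of 20 chromosomes. With the crossed lists exchanged this was 0.333, over 3342 sites of day 3 only and 251 of day 0 only. Sites of both days stood above the 1513 sites of 1 day together, at 21.6% against 16.2% (odds ratio 1.42, 1.21 to 1.68; exact adjusted p = 1.67e-05). The exchange moved this to 2.89, over 784 sites of both days and 3593 of 1 day, and comparison within parts of the file order gave 1.25.

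The share in the list named for GFP day 3 was 14.5% of the sites of day 0 only, 21.7% of those of both days and 10.2% of those of day 3 only. Both days together exceeded the sites of 1 day, at 21.7% against 11.8%, on 20 of 20 chromosomes. The odds ratio was 2.08 (1.74 to 2.5; Fisher's exact test, adjusted p = 7.97e-17), and 1.74 when taken over 10 file-order parts. The day classes were cut from lists of the same cell line and antibody as this list, which by its crossed label may itself be Runx2 day 0. A higher share at sites of both days could therefore follow from how the classes were made. The test cannot tell this apart, and its p-value is not read as support. GFP day 0 overlapped 2.58%, 4.12% and 1.13% of the 3 classes in the same order. Foxa2 lay within 10 kb of 761 sites of both days (24.1%, 22.7 to 25.6%) and of 478 sites of 1 day (31.6%, 29.3 to 34.0%), an odds ratio of 0.688 (0.599 to 0.790; exact adjusted p = 1.22e-07). For osteoblast Runx2 within 10 kb, the shares were 24.7% at sites of both days and 25.4% at sites of 1 day (odds ratio 0.959, 0.831 to 1.11; exact adjusted p = 0.588), and a difference did not pass the test. With the crossed lists exchanged these 3 odds ratios were 2.83 for the GFP day 3 list, 0.540 for Foxa2 and 1.00 for osteoblast Runx2. The sites of day 3 only were those most often in neither Jun nor a GFP list, at 777 (80.1%), beside 377 (69.4%) at day 0 only and 2015 (63.8%) on both days.

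**Figure D3:**
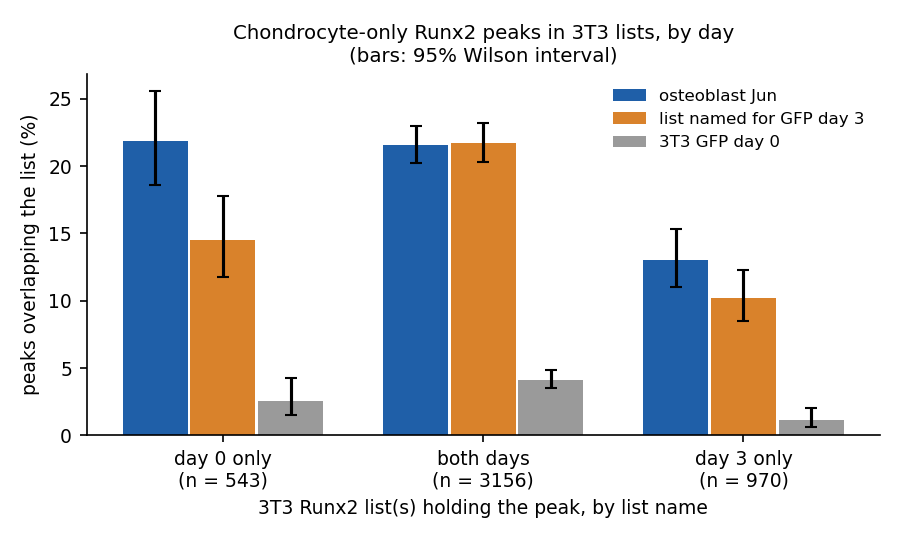
Percent of 3T3-shared chondrocyte sites (y axis) overlapping Jun and the GFP lists, by the 3T3 Runx2 list or lists that held the site (x axis: day 0 only, both, day 3 only), with 95% Wilson intervals. Jun overlap is 21.9%, 21.6% and 13.0% in the 3 classes.

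Peak width and file position were compared because both moved with the readouts. The 3T3-shared chondrocyte sites had a median width of 137 bp (quartiles 106 and 187 bp), close to 138 bp (108 and 179 bp) for the sites outside the 3T3 lists, and ran from 4 to 497 bp. Sites with Jun were wider, at a median of 150 bp (111 and 236 bp), than sites without it, at 134 bp (105 and 177 bp). Osteoblast-only sites, which come from another list, were wider still, at a median of 194 bp (145 and 265 bp). With all peaks set to 200 bp, the Jun odds ratio against them was 0.710. For the GFP and Foxa2 contrasts with osteoblast-only sites no width setting was run, so the part of width in them was not tested. File position separated the classes of the chondrocyte list more than width did. The selected sites lay a median of 55.2% of the way down the chondrocyte list, sites outside the 3T3 lists 71.7%, sites of both skeletal cell types 26.4% and chondrocyte-only sites with Foxa2 36.8%. Within the selected sites the medians were 63.2% for day 0 only, 50.4% for both days and 66.6% for day 3 only.

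Across 10 equal parts of the chondrocyte list, each of 1539 peaks, the share of Foxa2-free chondrocyte-only peaks found in 3T3 cells was 70.9% in the first part, highest at 76.6% in the second and 41.2% in the last. Jun overlap of the 3T3-shared sites was 26.2% in the first part and 12.0% in the last, and that of the sites outside the 3T3 lists 13.0% and 5.98%. In 10 of 10 parts the selected sites had the higher Jun share, and likewise in 10 of 10 parts for the list named for GFP day 3. The same held in 10 of 10 parts of the list by width. Compared within the file-order parts, the odds ratio for Jun was 2.44, against 2.77 over the whole list, and within the width parts it was 2.70. For the list named for GFP day 3 it was 3.88 within file-order parts. Against sites of both skeletal cell types, which lay nearer the top of the file, the contrasts were weaker within file-order parts. There the odds ratio was 0.591 for Jun (0.476 over the whole list). It was 0.792 for the list named for GFP day 3 (0.595) and 0.616 for GFP day 0 (0.518).

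**Figure D4:**
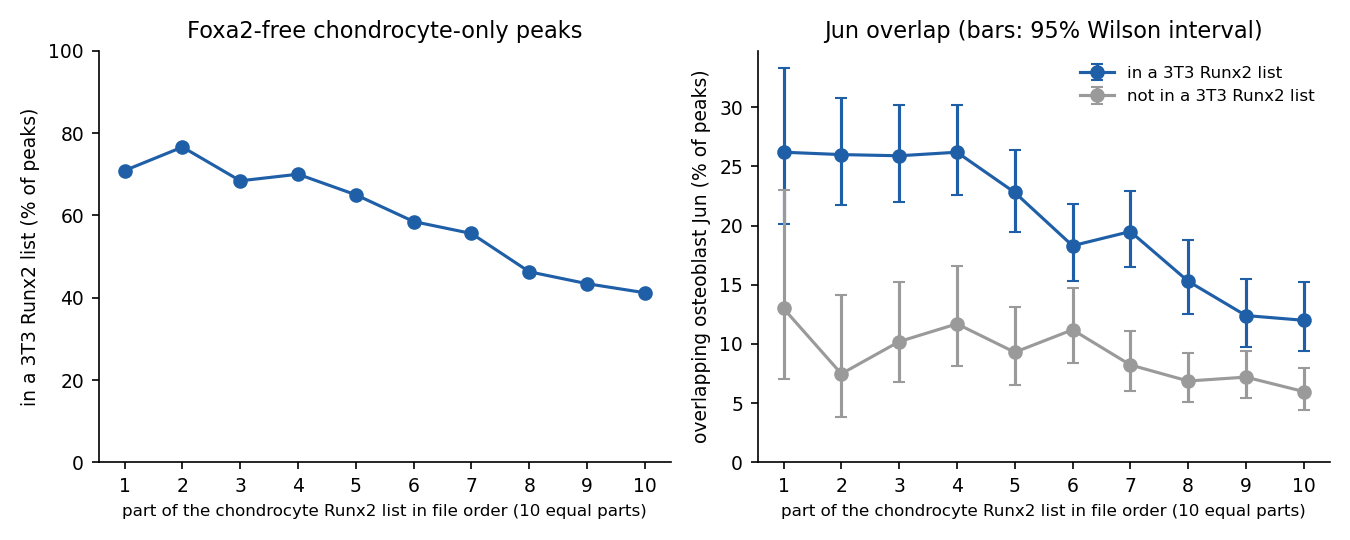
Left, percent of Foxa2-free chondrocyte-only Runx2 peaks found in a 3T3 Runx2 list (y axis) in each of 10 successive equal stretches of the chondrocyte Runx2 list as filed (x axis); right, percent overlapping Jun for the 3T3-shared sites and the sites outside the 3T3 lists, with 95% Wilson intervals. The left share is 70.9% in the first part and 41.2% in the last, and the Jun share of the 3T3-shared sites is the higher in 10 of 10 parts.

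The 3T3-shared chondrocyte sites lay on 20 chromosomes, with 49 sites on chromosome X and up to 386 on chromosome 11. The share of Foxa2-free chondrocyte-only peaks that were found in 3T3 cells was lowest on chromosome 14 (45.5%) and highest on chromosome 11 (63.0%). Chromosome 11 also had the highest share of its sites called on both days, 73.1%, and chromosome 16 the lowest, 53.2%. The Jun share of the selected sites lay between 14.3% on chromosome X and 24.1% on chromosome 17. At sites outside the 3T3 lists it lay between 5.33% on chromosome 18 and 11.5% on chromosome 11. The ranges of these point values did not overlap, but the intervals at their ends did. Chromosome X had Jun at 7 of 49 selected sites (7.10 to 26.7%). The interval on chromosome 11 was 7.94 to 16.3% for sites outside the 3T3 lists.

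**Figure D5:**
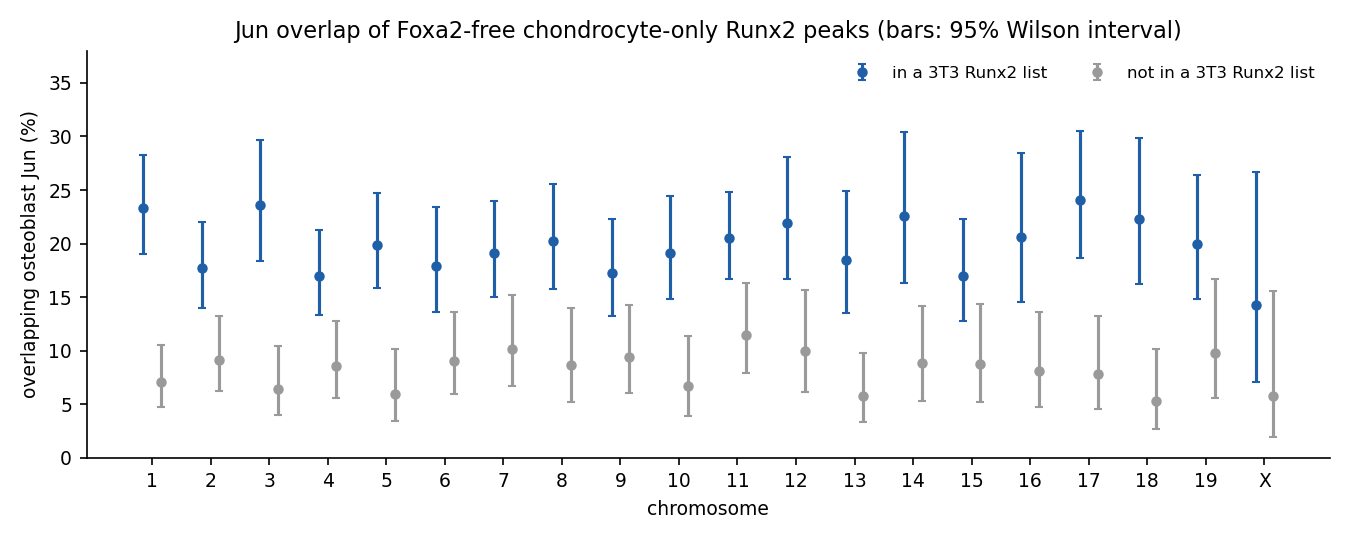
Percent of peaks overlapping osteoblast Jun (y axis) on each chromosome (x axis), for the 3T3-shared chondrocyte sites and the chondrocyte sites outside the 3T3 lists, with 95% Wilson intervals. The 3T3-shared sites range from 14.3 to 24.1% and the others from 5.33 to 11.5%.

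Individual sites show how these features combine. Positions are 1-based in mm9, and genes are not named, since no annotation of mm9 was used here. Among the widest sites, chromosome 9 from 20776653 to 20777149 (497 bp) was called in 3T3 cells at day 3 only. It overlapped no Jun or GFP peak, although a Jun peak lay 139 bp away and the nearest osteoblast Runx2 peak 30130 bp away. A site of nearly equal width, on chromosome 4 from 149943695 to 149944190 (496 bp), was called on both days, overlapped a peak named for GFP day 3 and missed a Jun peak by 34 bp. The widest sites thus included ones without Jun that had a Jun peak next to them.

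The widest site with Jun and no GFP peak lay on chromosome 7 from 30768482 to 30768971 (490 bp) and was called at day 0 only. The next, on chromosome X from 133276227 to 133276713 (487 bp), was called on both days and stood far from the other skeletal lists, with Foxa2 402596 bp and osteoblast Runx2 999093 bp away. The last of these 3 was on chromosome 1 from 40501627 to 40502111 (485 bp, both days), 54525 bp from Foxa2 and 105328 bp from osteoblast Runx2. By the way they were picked, these 3 sites overlapped Jun of osteoblasts and no osteoblast Runx2 peak. The nearest osteoblast Runx2 peak was at least 29422 bp away.

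Other sites were picked as the widest of their day class. Chromosome 16 from 20672864 to 20673359 (496 bp) was the widest of day 0 only and overlapped Jun as well as a peak named for GFP day 3. Chromosome 5 from 114357364 to 114357839 (476 bp), also of day 0 only, overlapped neither, with Jun 188 bp away. Chromosome 9 from 35018335 to 35018830 (496 bp), a site of both days, overlapped both GFP lists and no Jun peak. Of the day 3 only sites, chromosome 18 from 67769718 to 67770213 (496 bp) overlapped a peak named for GFP day 3 and lay 1563 bp from an osteoblast Runx2 peak. Chromosome 7 from 140984991 to 140985483 (493 bp) overlapped no list beyond those that selected it, and Jun was 83987 bp away.

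The 3 members nearest the top of the chondrocyte list were narrower, and all 3 were called on both days without Jun or GFP. The first, on chromosome 5 from 142916825 to 142916927 (103 bp), had a Jun peak 293 bp, an osteoblast Runx2 peak 577 bp and a Foxa2 peak 1491 bp away. The next, on chromosome 16 from 10786152 to 10786533 (382 bp), had Jun 908 bp and osteoblast Runx2 2736 bp away. The last, on chromosome 9 from 114021555 to 114021673 (119 bp), missed a Foxa2 peak by 15 bp and had no osteoblast Runx2 peak within 95823 bp. These positions show that some selected sites lay beside, though not on, the lists that they were selected to miss.

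Most 3T3-shared chondrocyte sites had no other selected site within 50 kb. The count joined selected sites only and is not given for other classes, so it is not read as a trait of these sites. A further chondrocyte Runx2 peak of any class lay within 10 kb of 34.4% of them, against 34.7% of the whole list. When members no more than 50 kb apart were joined, they formed 3513 runs, of which 2727 held 1 site (58.4% of all members), and 30 runs of 5 or more held 178 sites (3.81%). Overlapping members were few, with 22 pairs. The run with most sites spanned 213 kb of chromosome 10 from 82447841 to 82660955 and held 11 of the selected sites, 7 of both days and 4 of day 3 only, 3 of them with Jun. The same span had 15 chondrocyte Runx2, 11 Foxa2 and 3 Jun peaks, 1 osteoblast Runx2 peak, 16 peaks named for Runx2 day 0 and 31 of Runx2 day 3. It held 1 peak named for GFP day 3 and none of GFP day 0, and just 1 chondrocyte site outside the 3T3 lists.

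The next 2 runs differed in their surroundings. On chromosome 19 from 5724655 to 5823446 (98.8 kb), 9 selected sites (2 with Jun, 5 of both days and 4 of day 3 only) lay among 15 Jun peaks, 6 Foxa2 peaks, 5 osteoblast Runx2 peaks, 8 GFP day 0 peaks and 14 peaks named for GFP day 3. On chromosome 5 from 114078168 to 114221916 (144 kb), 8 selected sites, 7 of both days and 1 of day 0 only, had no Jun overlap. That span held 2 Jun, 2 osteoblast Runx2 and 5 Foxa2 peaks, no GFP day 0 peak and 5 peaks named for GFP day 3. Of these 3 runs, Jun peaks outnumbered the selected sites in the one on chromosome 19.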

How the data were processed

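ChIP-seq peak lists of 8 groups were used. Each was deposited by the authors as 3 columns (chromosome, start, end) with no score. The build was mm9 and the authors used Bowtie and DiffBind at unnamed steps, per the submitters' processing notes. Versions, the peak caller, its threshold and controls, and whether the 2 libraries of each primary Runx2 list were pooled are not given in the sources used here. Samples were grouped by their labels, and 0 columns of per-sample values were left unused.

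Overlap meant at least 1 shared bp, and counts were checked against bedtools 2.31.1. Shares have 95% Wilson intervals. For class contrasts, conditional odds ratios and two-sided p-values came from Fisher's exact test, adjusted by the Benjamini-Hochberg method at a threshold of 0.05 (Python 3.11.15, SciPy 1.17.1, statsmodels 0.14.6, NumPy 2.4.6, matplotlib 3.10.9). The Mantel-Haenszel odds ratio was used within 10 equal parts of a list. The code was tested on simulated data. Members, classes and tests were chosen with earlier results of these data known. The sites named were the 3 widest of all, with Jun and no GFP list, and of each day class, the 3 first in file order and the 3 runs with most members, ties by position. One site among the widest, on chromosome 19, is counted but not described. Neither an mm9 gene table nor an mm9 genome was used, so the planned gene lists, motif searches and sequences are not reported here. Alternatives covered the overlap rule, a fixed width, exchange of the crossed lists, removal of GFP-list peaks or sex chromosomes, strata of file order and width, and other distances. Deciding by the day 3 list alone, and applying 3 of these settings to the other 16 tests, were chosen after seeing the data.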

Additional observations from a re-analysis of the deposited data

How the results depend on the processing

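The 8 main results with a test kept their direction and their side of the threshold in all 76 values computed under 12 settings. Against chondrocyte sites outside the 3T3 lists, the odds ratio ranged over the alternatives from 2.20 to 3.08 for Jun, 3.73 to 21.5 for the list named for GFP day 3, 3.91 to 12.1 for GFP day 0, 1.35 to 1.82 for osteoblast Runx2 nearby and 0.534 to 0.891 for Foxa2 nearby (adjusted p = 0.0139 within 50 kb, Fisher's exact test). For Jun it ranged from 0.429 to 0.591 against sites of both cell types, 0.659 to 0.710 against osteoblast-only sites and 1.25 to 2.89 for both days against 1. Exchanging the crossed lists moved it by over 1.5 times for both GFP lists (21.5 and 12.1) and for both days against 1 (2.89). Centres within 250 bp did so for GFP day 0 (7.95). The number of selected sites ranged from 3156 (both days required) to 4629. Of 41 values for the other 16 tests, chosen after seeing the data, 36 kept direction and side. The exchange turned round the GFP day 3 contrast with osteoblast-only sites (1.42) and 2 contrasts that pass no test, other chondrocyte Runx2 nearby (0.982, and 0.979 with the day 3 list alone) and osteoblast Runx2 nearby by day (1.00). Foxa2 nearby against sites of both cell types passed the test within file-order parts (1.16). The causes were not tested. No paired analysis was possible because each group is 1 list with no replicate columns, and no replicate could be left out for the same reason. Read depth was not given, so a site missing from a list may lie under its detection limit.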
